A study of Arabidopsis thaliana with 4 samples.

Results

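A set of 52 Arabidopsis genes gave bright signals and were moderately higher in KUA1-IOX seedlings 4 h after estradiol than in mock-treated KUA1-IOX seedlings. They were chosen from the array signals by a rule that left out the control probe sets and asked for a mean signal of at least 100 over the 4 arrays, a lower estradiol signal at least 25% above the higher mock signal, and a ratio of the geometric means, estradiol over mock, under 2. The rule took 116 of the 22746 probe sets tested, or 0.510%, and 116 of the 6454 bright ones, or 1.80%. Of these, 52 were assigned to a single gene each, out of 13364 genes with a locus and 3211 bright genes, and each gene was counted by its brightest probe set. The other 64 probe sets were left without a name here, 3 because they are assigned to several genes and 61 because neither source of names used here lists them. Since the 4 signals chose the genes, every value below is a description and no gene of the set was tested.

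KUA1-IOX is a stable Col-0 line in which the chimeric transcription factor XVE is made at all times and, once it binds estradiol, switches on KUA1 from a LexA promoter. KUA1 (AT5G47390) is a transcription factor of the MYB-like type, and the line was made to follow the genes that respond to it. Seedlings of the T3 generation were 14 days old and were kept for 4 h in liquid medium with 15 µM estradiol (2 arrays) or with ethanol as mock treatment (2 arrays), and each array carries RNA of 1 biological replicate of whole seedlings. The genotype label calls the mock samples control, whereas their titles and the study's methods give KUA1-IOX for all 4. Estradiol-treated seedlings without the construct are not among the samples, so the effect of estradiol itself and that of KUA1 induction cannot be told apart. In whole seedlings, fewer cells of a type and less RNA per cell cannot be told apart either.

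KUA1 itself had signals of 1887 and 3373 on the estradiol arrays, against 203 and 170.2 on the mock arrays, a log2 fold change of 3.76. The arrays were alike in scale, with a trimmed mean of 100.0 each and medians of 37.5 and 36.2 under estradiol against 36.2 and 38.9 under mock. Of 23 marker genes of root hairs, root tissue, mesophyll, guard cells and phloem, 4 were matched. The root hair expansins gave lower signals under estradiol, EXPA7 with signals of 27.7 and 22.9 on the estradiol arrays and 35.1 and 55.2 on the mock arrays, and EXPA18 with 12.8 and 13.8 on the estradiol arrays and 27.7 and 46.9 on the mock arrays. The root glucosidase gene PYK10 had 1861 and 1906 on the estradiol arrays and 1994 and 2446 on the mock arrays, and the guard cell gene FAMA 59.7 and 59.5 on the estradiol arrays and 68.2 and 51.2 on the mock arrays. Summed over 26 photosystem and light-harvesting genes, the signal was 18282 and 18208 on the estradiol arrays and 17849 and 18194 on the mock arrays. That sum pools genes that went opposite ways. Both estradiol signals lay above both mock signals in 6 of the 26, all plastid genes, and below in 4, all nuclear. Over all genes with a locus, 15.7% lay above and 17.8% below. The plastid gene psbJ had a log2 fold change of 0.58 and the nuclear gene LHCB4.2 one of -0.54. Whether these shifts have a part in the values of the 52 genes was not tested.

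The growth of a leaf cell depends on the loosening of its wall, the uptake of water into the vacuole and the supply of membrane, and reactive oxygen species and their removal affect how far the wall can stretch. Plant cells also carry large families of oxidoreductases and transferases that modify hormones, reactive carbonyls and foreign compounds, and many of these genes answer quickly to stress and to chemicals. Genes of the latter kind stand in the set, beside others with roles in lipids, transport, protein turnover and signalling. Only 1 gene, ARL, is grouped under growth here. The tables used here give 10 of the 52 genes a symbol and the other 42 only a locus, and for those 42 they name no function. The roles named below are general knowledge of Arabidopsis gene families and not results of these arrays.

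The differences were small by construction. The 52 log2 fold changes ran between 0.39 and 0.98 with a median of 0.63, which is a fold of 1.55, whereas the median over all 3211 bright genes was 0.0086 and that over all 13364 genes with a locus -0.0078. A fold under 1.5 was found for 19 genes, a fold of 1.5 to 1.75 for 20 and a fold of 1.75 or more for 13. The lower estradiol signal was between 1.253 and 1.74 times the higher mock signal, a ratio called the separation here, and at least 1.5 times in 11 genes. Mean signals lay between 101 and 1506 with a median of 251, of which 24 were under 200, 16 were at least 500 and 3 were at least 1000. Signals of different probe sets depend on how well each one hybridizes, so these mean signals do not rank the genes by transcript level. Summed over the 52 genes, the signal was 24944 and 24271 on the estradiol arrays and 15786 and 15371 on the mock arrays.

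**Figure D1:**
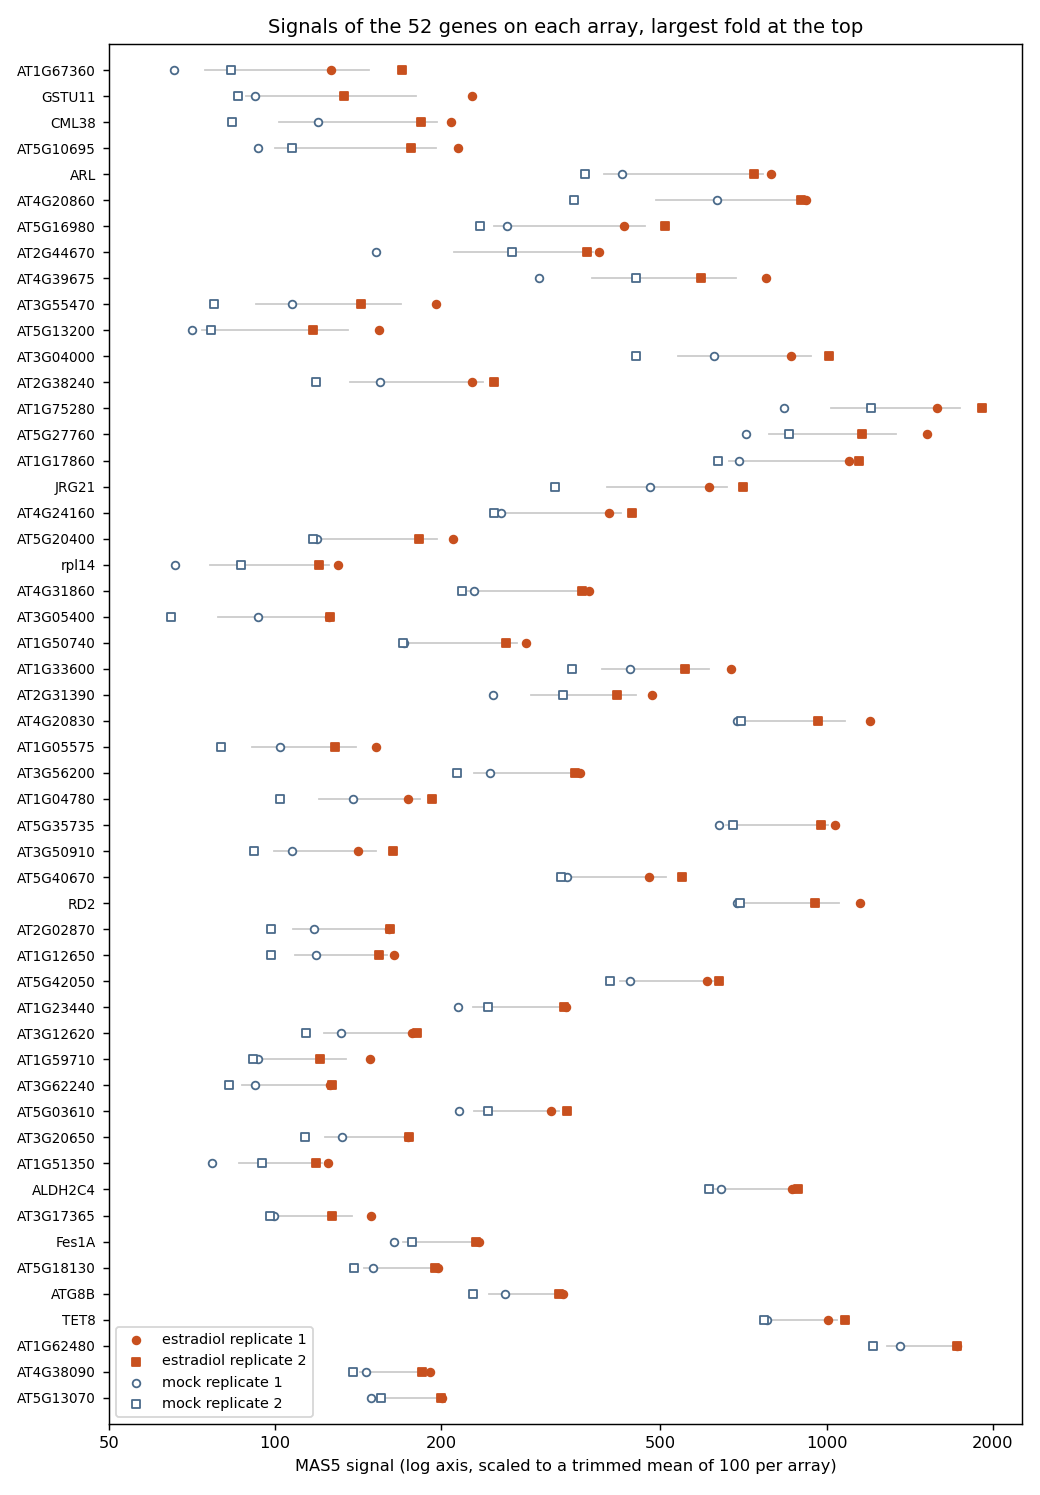
Signals of the 52 genes on each of the 4 arrays, on a log axis, with the genes in order of their fold change. Filled orange symbols are the estradiol arrays, open blue symbols the mock arrays, circles replicate 1 and squares replicate 2. The grey line joins the arithmetic means of the groups. In every gene both filled symbols lie to the right of both open ones, as the rule requires, and the log2 fold changes run between 0.39 and 0.98.

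Groups that do not overlap are common among bright probe sets on 4 arrays. Both estradiol signals lay above both mock signals in 1146 of the 6454 bright probe sets (17.8%), and among all 13364 genes with a locus they lay above in 2103 (15.7%) and below in 2374 (17.8%). The same rule turned round, for moderately lower signals after estradiol, took 245 probe sets standing for 110 genes, more than the 116 probe sets and 52 genes on the higher side. Bright genes with the same separation and a fold of at least 2 numbered 53, with log2 fold changes between 1.01 and 3.76, the highest being KUA1. At an adjusted p under 0.05 limma called 0 of the 22746 probe sets higher (0%) and 0 lower, with a smallest adjusted p of 0.158 and 1481 unadjusted p-values under 0.05. The methods' t-test also called 0 after Benjamini-Hochberg adjustment, with 1350 unadjusted p-values under 0.05.

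**Figure D2:**
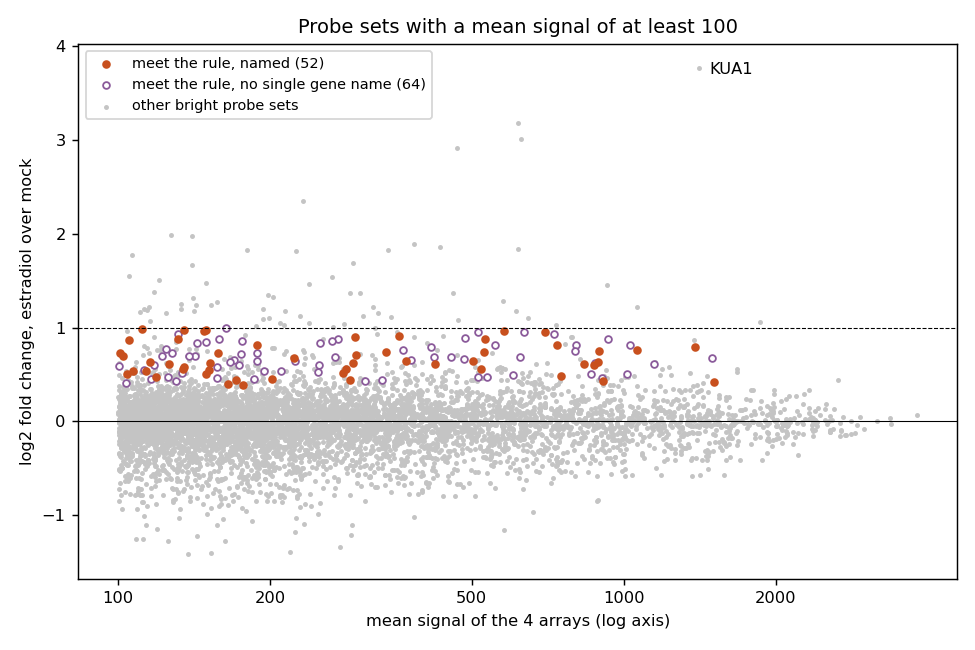
Log2 fold change, estradiol over mock, against the mean signal of the 4 arrays (log axis) for the 6454 bright probe sets. Filled orange circles are the 52 genes, open purple circles the 64 probe sets that meet the rule without a single gene name, and grey dots all others; the dashed line marks a fold of 2. The 52 genes lie between 0.39 and 0.98 at mean signals of 101 to 1506, and KUA1 stands at 3.76.

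Oxidoreductases and enzymes of detoxification made up 11 of the 52 genes, with log2 fold changes between 0.48 and 0.97 and a median of 0.79. Their mean signals ran between 135 and 1385 with a median of 699. Several of them belong to families whose enzymes act on plant hormones, phenolic compounds or reactive carbonyls.

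JRG21 (AT3G55970), a jasmonate-regulated oxygenase that hydroxylates jasmonic acid and so lowers its activity, had signals of 612 and 707 on the estradiol arrays, against 478 and 322 on the mock arrays (0.74 on the log2 scale). AT2G38240, an oxygenase of the same subfamily, had 228 and 249 on the estradiol arrays, against 155 and 119 on the mock arrays (0.81). In both genes the mock arrays differed more from each other than the estradiol arrays did, and in both mock replicate 2 was the lowest of the 4 arrays. The other members of this subfamily that were measured are AT5G05600, with 929 and 1008 on the estradiol arrays and 899.9 and 819.8 on the mock arrays (0.17), and AT3G11180. The signals of AT3G11180 were 8.40 and 13.8 on the estradiol arrays and 2.20 and 5.55 on the mock arrays (1.63). In these 2 relatives, looked at after their values were seen, both estradiol signals also lay above both mock signals, as in 15.7% of all genes with a locus, but in AT5G05600 by too small a margin for the rule and in AT3G11180 at signals far under 100. AT5G20400, a further oxygenase that depends on 2-oxoglutarate and iron, had 210.1 and 183 on the estradiol arrays, against 119 and 117 on the mock arrays (0.73).

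AT4G20860 and AT4G20830 encode flavin-binding oxidases of the berberine bridge enzyme type, a family whose members oxidize oligosaccharides and phenolic alcohols at the cell wall, and they stand within 5 genes of each other on chromosome 4. AT4G20860 had signals of 917 and 900.4 on the estradiol arrays, against 632 and 348 on the mock arrays (0.95). AT4G20830 had 1197 and 966 on the estradiol arrays, against 688 and 701 on the mock arrays (0.63). The estradiol arrays of AT4G20860 lay close together and its mock arrays lay far apart, whereas in AT4G20830 it was the mock arrays that lay close together. The other family gene of the cluster that was measured, AT4G20820, was dim and its groups overlapped, with 34.4 and 53.1 on the estradiol arrays and 40.9 and 31.5 on the mock arrays (0.25). The pair was the only one of the 52 genes within 5 genes of each other.

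AT5G16980 encodes a zinc-binding dehydrogenase and lies beside AER, the gene of an alkenal reductase that removes reactive carbonyls made from oxidized lipids. Its signals were 429 and 509 on the estradiol arrays, against 263 and 235 on the mock arrays (0.91), with the lower estradiol signal 1.63 times the higher mock signal. AER had 1275 and 1394 on the estradiol arrays and 1052 and 1000.1 on the mock arrays (0.38), a separation too small for the rule. AT5G16960 had 67.4 and 77.0 on the estradiol arrays and 58.8 and 51.9 on the mock arrays (0.38), and in AT5G16990 the groups overlapped, with 117 and 101 on the estradiol arrays and 93.0 and 121 on the mock arrays (0.03). Apart from AT5G16980, which the rule chose, 2 of the 3 other measured genes of this cluster had both estradiol signals above both mock signals, beside 15.7% of all genes with a locus. Near-identical neighbours can share array probes, and how far the probe sets of such a cluster are independent was not tested.

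AT3G04000, an aldehyde reductase of the short-chain dehydrogenase type, had signals of 863 and 1011 on the estradiol arrays, against 626 and 451 on the mock arrays (0.81). ALDH2C4 (AT3G24503) had 865 and 888 on the estradiol arrays, against 644 and 613 on the mock arrays (0.48). ALDH2C4 is the aldehyde dehydrogenase that makes ferulic and sinapic acid, phenolics that are bound in cell walls or stored as esters. It was the only one of 8 measured aldehyde dehydrogenase genes in the set, and the other 7 had log2 fold changes between -0.34 and 0.31. ALDH7B4, for example, had 1726 and 2052 on the estradiol arrays and 1758 and 1439.7 on the mock arrays (0.24).

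AT1G75280, an isoflavone reductase-like gene, had signals of 1585 and 1913 on the estradiol arrays, against 836 and 1205 on the mock arrays (0.79), and is among the 3 genes with a mean signal of at least 1000. Its neighbours of the same type were dim. AT1G75290 had 10.7 and 10.5 on the estradiol arrays and 3.48 and 1.82 on the mock arrays (2.08). AT1G75300 had 13.6 and 11.7 on the estradiol arrays and 5.95 and 12.7 on the mock arrays (0.54), where the groups overlapped. AT5G35735, an auxin-responsive gene of the cytochrome b561 type, whose proteins pass electrons across membranes, had 1037 and 979 on the estradiol arrays, against 639 and 677 on the mock arrays (0.62). Its replicates lay close together in both groups.

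GSTU11 (AT1G69930), a tau class glutathione transferase of the kind that joins glutathione to foreign compounds, had signals of 228 and 133 on the estradiol arrays, against 92.0 and 85.6 on the mock arrays (0.97). Its estradiol arrays differed by 0.77 on the log2 scale, the widest difference between estradiol replicates in the set. This gene owes its name here to the study's own list, which was chosen on these samples, so its place in the set is not independent evidence. None of the 23 measured genes of a list of glutathione and redox proteins named by the platform table was in the set, 6 having both estradiol signals above and 4 below both mock signals (15.7% and 17.8% over all genes with a locus), and the median log2 fold change of the list was 0.08. Of those above, GSTU22 was too dim for the rule (1.37), and of those below, TRXF2 was bright (-0.78). The list lacks several tau class genes that the study measured by qRT-PCR, among them GSTU3 and GSTU12, so it does not describe the whole family.

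**Figure D3:**
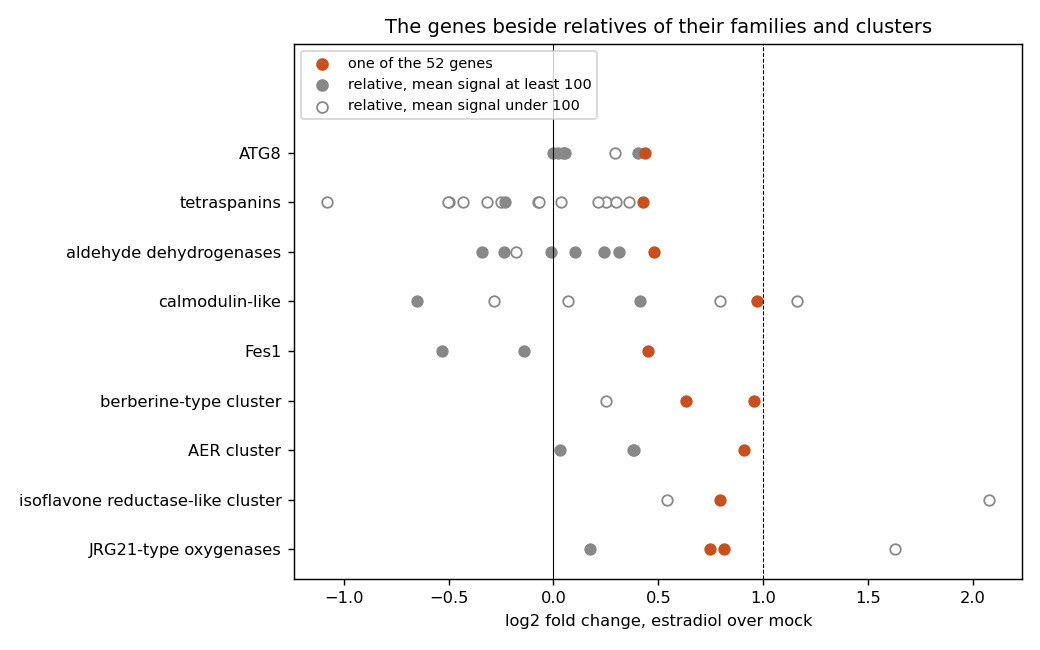
Log2 fold changes, estradiol over mock, of genes of the set (orange) and of other measured genes of the same family or chromosomal cluster, filled grey where their mean signal is at least 100 and open where it is lower. The dashed line marks a fold of 2. All 4 JRG21-type oxygenases and all measured genes of the AER, berberine-type and isoflavone reductase-like clusters lie above 0. The ATG8, tetraspanin, aldehyde dehydrogenase, calmodulin-like and Fes1 families include genes at or below 0. Orange genes lie above 0 by the rule, and the families were chosen after their values were seen. Among the other genes, AT4G20820, AT5G16990 and AT1G75300 overlap between groups, and AT1G75290 and AT3G11180 are dim. The contrast between families is a description only.

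Stress, defence and signalling genes made up 10 of the 52, with log2 fold changes between 0.43 and 0.97 and a median of 0.68. CML38 (AT1G76650), a calmodulin-like calcium sensor known from wounding and hypoxia, had signals of 209 and 184 on the estradiol arrays, against 119.7 and 83.7 on the mock arrays (0.97). It was 1 of 7 measured genes with a CML symbol, which differed among themselves. CML23 had 62.8 and 55.2 on the estradiol arrays and 33.5 and 34.6 on the mock arrays (0.79). CML37 had 19.2 and 10.3 on the estradiol arrays and 6.43 and 6.17 on the mock arrays (1.16), and both were too dim for the rule. CML41 went the other way, with 101 and 59.0 on the estradiol arrays and 133 and 109.8 on the mock arrays (-0.65). A list of calcium sensors and calcium-dependent kinases had 8 measured genes, these 7 and AT1G76640, so it held no measured kinase and is not a separate count. AT1G76640, beside CML38, was dim and overlapped between groups, with 2.27 and 0.62 on the estradiol arrays and 1.04 and 0.79 on the mock arrays. In the list 3 genes, CML38, CML23 and CML37, had both estradiol signals above both mock signals, and 1, CML41, had both below. The median log2 fold change was 0.40. Of all genes with a locus, 15.7% were above and 17.8% below. CML38 is 1 of the 3 and was above by the rule.

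AT2G44670, a gene of the plant zinc finger family that was long named only by its domain of unknown function, had signals of 388 and 368 on the estradiol arrays, against 153 and 269.6 on the mock arrays (0.90). Its mock arrays differed by 0.82 on the log2 scale, nearly as much as the difference between the groups. AT5G27760, of the hypoxia-responsive family of mitochondrial membrane proteins, had 1518 and 1158 on the estradiol arrays, against 714 and 856 on the mock arrays (0.76). AT1G17860, a Kunitz-type trypsin inhibitor of the kind that acts against the proteases of herbivores and pathogens, had 1097 and 1144 on the estradiol arrays, against 694 and 636 on the mock arrays (0.75). In AT1G17860 the replicates lay close together in both groups, and the lower estradiol signal was 1.58 times the higher mock signal. RD2 (AT2G21620), a desiccation-responsive gene of the universal stress protein type, had 1151 and 952 on the estradiol arrays, against 689 and 696 on the mock arrays (0.60).

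AT4G31860 and AT3G12620 encode protein phosphatases of type 2C, a family that takes phosphate off signalling kinases and other proteins. AT4G31860 had signals of 370.5 and 360.4 on the estradiol arrays, against 229.9 and 219 on the mock arrays (0.71). AT3G12620 had 177 and 181 on the estradiol arrays, against 132 and 114 on the mock arrays (0.55). AT1G33600, a leucine-rich repeat protein gene, had 670.5 and 555 on the estradiol arrays, against 439 and 345 on the mock arrays (0.65). Its neighbour AT1G33590 had 715 and 509.7 on the estradiol arrays and 432 and 407 on the mock arrays (0.53), also without overlap but with the lower estradiol signal less than 25% above the higher mock signal. AT5G42050, which carries the DCD domain of proteins involved in cell death and development, had 608 and 638 on the estradiol arrays, against 439.8 and 405 on the mock arrays (0.56).

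TET8 (AT2G23810), a tetraspanin found in the plasma membrane and in extracellular vesicles, had signals of 1008 and 1079.7 on the estradiol arrays, against 779 and 772 on the mock arrays (0.43). The replicates of each group were close, and the fold was 1.35. Of 15 tetraspanin genes measured, 3 had both estradiol signals above, TET8 by the rule, and 3 below both mock signals (15.7% and 17.8% over all genes with a locus), and their median log2 fold change was -0.07. Only TET3 was bright besides TET8, with 134 and 120.1 on the estradiol arrays and 125 and 177 on the mock arrays (-0.23).

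ARL (AT2G44080), also named ARGOS-like, was the gene of the set with a direct tie to growth, since it promotes cell expansion in leaves and other organs downstream of brassinosteroids. Its signals were 793 and 739 on the estradiol arrays, against 426 and 364 on the mock arrays (0.96). The lower estradiol signal was 1.74 times the higher mock signal, the widest separation among the 52 genes.

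Genes of lipids and membranes numbered 5, with log2 fold changes between 0.52 and 0.98. AT1G67360, which encodes a protein of the rubber elongation factor type found on lipid droplets, had the largest fold change in the set, with signals of 126 and 169.7 on the estradiol arrays, against 65.8 and 83.4 on the mock arrays (0.98). AT3G55470, with a C2 domain of the kind that binds lipids in the presence of calcium, had 196 and 143 on the estradiol arrays, against 107 and 77.4 on the mock arrays (0.88). AT5G13200, a gene of the GRAM domain family, had 154 and 117 on the estradiol arrays, against 70.8 and 76.6 on the mock arrays (0.87). All 3 were near the lower limit of brightness, with mean signals of 111, 131 and 105. AT4G24160 encodes a hydrolase that acts on phospholipids and triacylglycerols and had 403 and 444 on the estradiol arrays, against 257 and 249.96 on the mock arrays (0.74), a separation of 1.57. AT5G03610, a lipase-like gene of the GDSL family, had 317 and 339 on the estradiol arrays, against 215 and 244 on the mock arrays (0.52).

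Transport and storage accounted for 5 genes, with log2 fold changes between 0.42 and 0.70. AT3G05400, a sugar transporter of the major facilitator family, had signals of 126 and 126 on the estradiol arrays, against 93.1 and 64.8 on the mock arrays (0.70). AT3G56200, an amino acid transporter, had 357 and 350.1 on the estradiol arrays, against 245 and 214 on the mock arrays (0.63). In both genes the estradiol arrays were nearly equal and the mock arrays differed more. AT5G40670, similar to the animal cystine exporter of lysosomes, had 476 and 547 on the estradiol arrays, against 339 and 330.2 on the mock arrays (0.61). AT1G50740, a small membrane protein of the TMEM14 type, had 286 and 263 on the estradiol arrays, against 172 and 170.4 on the mock arrays (0.68). AT1G62480, related to vacuolar calcium-binding proteins, had the highest mean signal in the set, 1506, with 1726 and 1723 on the estradiol arrays, against 1359 and 1216 on the mock arrays (0.42).

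Protein folding and turnover accounted for 5 genes, all with log2 fold changes under 0.6. Fes1A (AT3G09350), a partner of cytosolic Hsp70 that protects plants in the heat, had signals of 234.3 and 232 on the estradiol arrays, against 164 and 177 on the mock arrays (0.45). Its relative Fes1B went the other way, with 111 and 67.6 on the estradiol arrays and 125 and 125 on the mock arrays (-0.53), and Fes1C overlapped between groups, with 103 and 139.9 on the estradiol arrays and 137 and 128 on the mock arrays (-0.14). ATG8B (AT4G04620) belongs to the ubiquitin-like proteins that are joined to autophagosome membranes and had 334 and 327 on the estradiol arrays, against 261 and 228 on the mock arrays (0.44). None of the other 6 measured ATG8 genes had both estradiol signals above both mock signals, and the median log2 fold change of the family was 0.05. ATG8H had a like fold change of 0.40 but its groups overlapped, with 222 and 313 on the estradiol arrays and 232 and 171 on the mock arrays. The others were AT1G23440, a peptidase that removes pyroglutamate from the start of proteins (0.55), AT2G02870, an F-box protein with kelch repeats (0.58), and AT3G62240, a RING-type zinc finger protein (0.54).

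Of the 4 genes of sugar phosphorylation, RNA and plastid translation, AT2G31390, a fructokinase of the pfkB family, had signals of 484 and 418 on the estradiol arrays, against 248 and 333 on the mock arrays (0.64). The plastid gene rpl14 encodes a protein of the large ribosomal subunit of the chloroplast and had 129.9 and 120.3 on the estradiol arrays, against 65.8 and 86.8 on the mock arrays (0.73). It was the only gene of the set outside the nucleus, and its measured neighbour ArthCp060 had 109 and 91.1 on the estradiol arrays and 65.0 and 67.2 on the mock arrays (0.59). Among the plastid genes of the photosystem list, psbE, psbF, psbJ, psbK, psbL and psbT also had both estradiol signals above both mock signals. Of all genes with a locus, 15.7% did so. The other plastid genes of that list overlapped between groups. Higher signals were thus not particular to rpl14 among plastid genes. AT3G20650, which encodes an mRNA cap methyltransferase, and AT3G17365, which encodes another methyltransferase, had log2 fold changes of 0.51 and 0.48.

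For 11 genes no role is given here, and their log2 fold changes ran between 0.39 and 0.96 with a median of 0.56. AT5G10695 had signals of 215 and 176 on the estradiol arrays, against 93.0 and 107 on the mock arrays (0.96), a separation of 1.64. AT4G39675 had 777 and 593 on the estradiol arrays, against 301 and 451 on the mock arrays (0.88). Both genes have a measured neighbour that differed strongly, in opposite directions. AT4G39670, beside AT4G39675, had 94.8 and 67.1 on the estradiol arrays and 29.4 and 25.7 on the mock arrays (1.54), whereas AT5G10690, beside AT5G10695, had a log2 fold change of -1.16. The least changed gene was AT5G13070, whose 4 signals were 200.5 and 200.3 on the estradiol arrays, against 149.6 and 156 on the mock arrays (0.39). Its replicates were nearly equal in both groups. The other 8 were AT1G05575 (0.63), AT1G04780 with ankyrin repeats (0.62), AT3G50910 (0.61), AT1G12650 (0.56), AT1G59710 (0.54), AT1G51350 with armadillo repeats (0.51), AT5G18130 (0.44) and AT4G38090 (0.40).

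Replicates of the 52 genes were closer than those of bright genes as a whole, which the rule favours. The median absolute log2 difference between the estradiol arrays was 0.12 for the 52 genes and 0.19 for the 3211 bright genes, and between the mock arrays it was 0.19 for the 52 genes and 0.21 for the bright genes. The mock arrays differed more than the estradiol arrays in 36 of the 52. Estradiol replicate 2 was the higher of the pair in 20 genes and mock replicate 2 in 17. The widest differences in the set were 0.77 between the estradiol arrays in GSTU11, and 0.86 and 0.82 between the mock arrays in AT4G20860 and AT2G44670. Without its lower mock array, replicate 2, the log2 fold change of AT4G20860 was 0.52, and without its lower mock array, replicate 1, that of AT2G44670 was 0.49. Without its higher estradiol array, replicate 1, that of GSTU11 was 0.59.

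**Figure D4:**
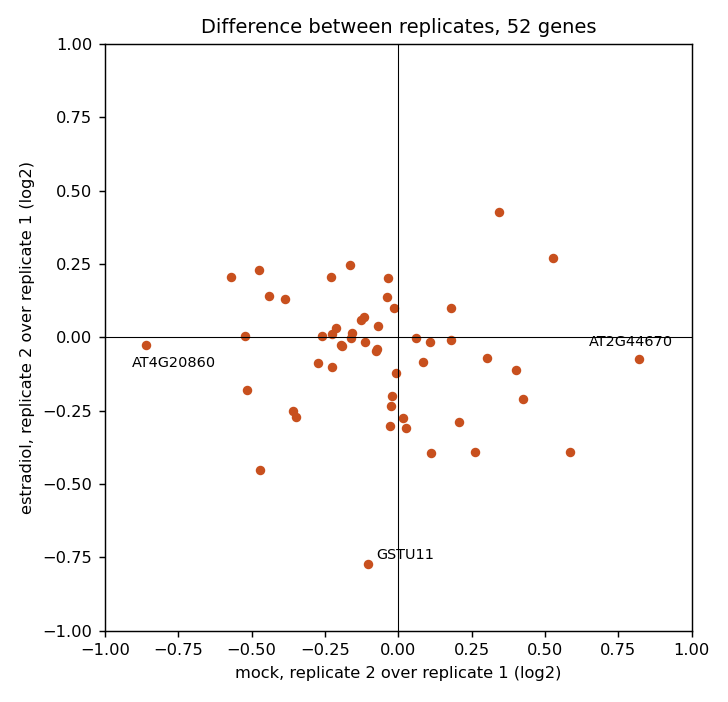
Difference between the replicates of each of the 52 genes, as the log2 of replicate 2 over replicate 1, for the estradiol arrays (vertical axis) and the mock arrays (horizontal axis). The points lie around 0 on both axes, with GSTU11 lowest on the estradiol axis (0.77 below 0) and AT4G20860 (0.86 below 0) and AT2G44670 (0.82 above 0) at the ends of the mock axis.

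The limits of the rule separated genes of nearly the same values. By mean signal, rpl14 (101) and AT3G05400 (102) were just inside, and AT3G01820 (99.7) and AT2G23680 (94.5) just outside. By separation, AT1G51350 (1.2527) and AT1G05575 (1.2535) were just inside, and AT4G33780 (1.2471) and AT5G35200 (1.2460) just outside. By fold, AT1G67360 (1.98) and GSTU11 (1.96) were just inside, and AT5G51830 (2.01) and AT1G33055 (2.02) just outside. The 64 probe sets without a single gene name resembled the named ones, with log2 fold changes between 0.41 and 0.99, a median of 0.67 and mean signals between 100.4 and 1498.

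The 52 genes were spread over the genome (positions by the TAIR10.1 assembly). Chromosomes 1 to 5 held 14, 7, 12, 7 and 11 of them and the plastid 1. As shares of the set these are 26.9%, 13.5%, 23.1%, 13.5% and 21.2% for chromosomes 1 to 5, beside 25.7%, 16.4%, 20.5%, 14.6% and 22.4% of all genes with a locus. Of the 104 places directly beside the 52 genes, 47 held a measured gene and none of these belonged to the set. A gene counts as measured here only if a probe set is assigned to it alone. Probe sets without such a name may stand for other neighbours, including some that meet the rule. Both estradiol signals lay above both mock signals in 14 of these 47 neighbours (29.8%) and below in 7 (14.9%), beside 15.7% and 17.8% of all genes with a locus, and their median log2 fold change was 0.11.

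Of 18 gene lists, 8 had at least 5 measured genes, and of these only the calcium sensors held a gene of the set, CML38. The lists count only genes that the platform table names singly, so GSTU11 could not be counted. The probe set shared by UGT73B2 and UGT73B3 met the rule but was not counted either. Its signals were 1090 and 1326 on the estradiol arrays and 674 and 637 on the mock arrays (0.88). A list without a gene of the set therefore does not show that its function is absent. Among 51 UDP-glycosyltransferases, which attach sugars to hormones and foreign compounds, 12 had both estradiol signals above and 9 below both mock signals (median log2 fold change 0.08). UGT73B5 (1.11) and UGT73B4 (1.19) were bright and widely separated, and only the upper bound on the fold kept them out of the set. UGT88A1, also bright, went the other way (-0.60). Photosystem genes had 6 above and 4 below of 26 (0.09). The 6 above, psbE, psbF, psbJ, psbK, psbL and psbT, are plastid genes, and the 4 below, LHCB4.1, LHCB4.2, LHCB4.3 and PSAN, are nuclear. This split was seen only after the values, and the pooled median does not show it. Vesicle traffic genes had 4 above and 1 below of 15 (0.07), and ubiquitin ligases of the U-box and ATL families 1 above and 1 below of 12 (0.07). Phenylpropanoid genes had 1 above, UGT84A3, and 1 below, UGT72E1, of 8 (-0.03). All of the 8 but HCT and CCR2 are also among the 51 UDP-glycosyltransferases, so this is not a separate count. HCT and CCR2 overlapped between groups. WRKY transcription factors had 0 above and 1 below of 7 (0.01). Over all genes with a locus, 15.7% were above and 17.8% below, with a median of -0.0078, and the lists were counted as a description only.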

How the data were processed

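The authors hybridized labelled RNA to Affymetrix ATH1 arrays and deposited MAS5 signal intensities on a linear scale, with 1 value per probe set and array. For MAS5, no version is given in the sources used here. The mean of each array was 100.0 after trimming 2% at each end. All values were used as deposited, and log2 was taken without an offset.

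Of 22810 probe sets, 64 controls were left out. Names came from the platform table, which lists 14016 probe sets, 503 with several genes, and does not list 8730; GSTU11 was named from the study's supplementary list, whose fold changes were not used. All 22746 probe sets were compared with limma 3.58.1 in R 4.3.3 (lmFit and eBayes with an intensity trend, Benjamini-Hochberg adjustment), which was tested on simulated data. The arrays are described as biological replicates, and p-values reflect only the variation among these 4.

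The rule, the gene lists and the genes to look at were chosen with earlier results of these data known. Genes set out for naming were the 12 with the largest fold change, the 12 with the highest mean signal, the 12 with the widest separation, up to 5 of each of the 18 gene lists, and 2 on each side of each limit. Other genes, the role groups and the 9 families were chosen after their values were seen. Alternatives were quantile normalization, median scaling, 32 added to every signal, other limits, each array left out, limma with other settings, and a replicate block. Promoter and protein sequences were not analysed here.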

Additional observations from a re-analysis of the deposited data

How the results depend on the processing

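The 52 genes depend on the limits of the rule more than on the scaling. Quantile normalization gave 58 genes (50 of the 52 among them), median scaling 60 (46) and 32 added to every signal 56 (39), and none of these scalings moved the median log2 fold change of all probe sets by more than 0.03. A mean signal of at least 200 gave 28 genes, a separation of at least 1.1 gave 211 and of at least 1.5 gave 11, no upper bound on the fold gave 105, and counting every probe set gave 116. Leaving out 1 array at a time gave between 147 and 207 genes, of which 41 to 47 were among the 52. Without an array, the separation of a gene can only stay or rise, which by itself favours a larger count. Genes of the 52 could drop out only by the limits on mean signal and fold. Over the 52 genes the median log2 fold change lay between 0.57 and 0.68 under the alternatives run. For the single genes, log2 fold changes lay between 0.33 and 1.38 under 7 alternatives, and 10 values moved by more than the spread between replicates, all with 32 added. The rule itself keeps each gene's direction when an array is left out or 32 is added, and the spread is built so that leaving out an array cannot exceed it.

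Whether the replicate numbers pair the arrays is not stated, and deviations of same-numbered arrays correlated at -0.13 over all probe sets and -0.39 over bright ones. With same-numbered pairs as a replicate block the rule took 87 genes, and with crossed pairs, an alternative chosen after seeing the data, 117. Any gene that meets the rule also meets it in either pairing. limma called 3 probe sets with the crossed replicate block and 0 under the others run, whose unadjusted p-values under 0.05 numbered 644 of 6454 with a mean signal of at least 100 and between 1044 (the same-numbered block) and 1671 of 22746 elsewhere. With 2 arrays a group, precision is limited.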
